A study of Caenorhabditis elegans with 2 samples.

Results

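CTBP-1 is the only C. elegans member of the C-terminal binding protein family, corepressors that are brought to chromatin by DNA-binding factors. The question here was how much of the tagged protein was recovered at its own gene and at 6 genes tied to it by genetic work or by family. The 7 genes were chosen by name, and they are 7 of 19973 protein-coding genes on the nuclear chromosomes in the Ensembl release 115 annotation of WBcel235, whose coordinates are those of ce11. They are ctbp-1, ttx-3, egl-13 and pag-3 on X, acc-4 on III, lips-7 on II and zag-1 on IV. For each gene, a peak counted when its summit lay between 5 kb upstream and 1 kb downstream of the annotated gene.

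Chromatin immunoprecipitation followed by sequencing was done on whole L4 larvae of strain RW12203, in which CRISPR placed TY1, EGFP and 3xFLAG tags at ctbp-1 on X (allele st12203), with an antibody against GFP. The larvae had been synchronised by starving at L1 and were 48 hours old. There was 1 group of 2 biological replicates, both from that strain, and no untagged or second condition was analysed here. Tagged CTBP-1 was therefore compared between genes within a list and not between conditions, and whole animals carry no record of the cell that held the DNA.

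The files were 8 peak lists. For the series as a whole there were a thresholded list of 2927 peaks, a conservative list of 2775 peaks and 2 ranked lists of 85313 and 79154 peaks, here called the larger and the smaller ranked list. Each replicate had a ranked list (40294 peaks in replicate 1, 46565 in replicate 2) and a thresholded list (1404 and 1715 peaks). Every peak of the thresholded list lay in the larger ranked list with a global irreproducible discovery rate (IDR) of at most 0.01, and every conservative peak lay likewise in the smaller one. IDR is small where a peak ranks high in each of a pair of lists. The signal of a peak is the authors' own value in their unit and is used here within a list. Ranked lists carry no threshold, so a ranked peak is weak evidence of binding, and no read depth was given.

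Proteins of the CtBP family are recruited through short peptide motifs in zinc finger, homeodomain and other factors, and they bring histone deacetylases and related enzymes. In worms, ctbp-1 makes a long form, which carries a THAP domain, and a short form from separate 5' ends, and it acts in neurons and in lifespan. Among its linked genes, ttx-3 encodes a LIM homeodomain factor that sets interneuron fate, egl-13 a SOX factor needed for uterine and neuronal fate, pag-3 a zinc finger factor of the GFI family, and zag-1 a zinc finger homeodomain factor of the ZEB family. The other two are not regulators of transcription, acc-4 being an acetylcholine-gated chloride channel gene and lips-7 a lipase gene.

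Reference sequence at the strongest ranked peak of 5 of the genes is shown to let the letters under the summits be compared. Each run holds 151 bases on the plus strand of WBcel235, read from the RefSeq genome and centred on the summit. Capitals mark matches to AAATCA, the core of GFI sites, or to GTTCNANNC, the internal B box of RNA polymerase III genes, the only motifs of 6 searched on both strands that occurred in them. Annotated noncoding RNAs overlap 4 of them, F49E10.20 at ctbp-1, T22B7.18 and T22B7.20 at egl-13, F45B8.6 at pag-3, and F28F9.10 and F28F9.16 at zag-1. The peak of lips-7 lies in the gene's own exon, part of it untranslated, and is not shown.
ctbp-1, chrX:5868100-5868250, intron: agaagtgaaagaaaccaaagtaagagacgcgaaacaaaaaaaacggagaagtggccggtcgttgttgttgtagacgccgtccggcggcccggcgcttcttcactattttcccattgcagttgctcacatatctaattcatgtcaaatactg
egl-13, chrX:5661412-5661562, upstream: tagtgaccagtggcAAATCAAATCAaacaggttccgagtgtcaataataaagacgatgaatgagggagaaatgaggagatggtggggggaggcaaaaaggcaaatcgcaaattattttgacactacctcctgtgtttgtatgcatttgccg
acc-4, chrIII:13484526-13484676, upstream: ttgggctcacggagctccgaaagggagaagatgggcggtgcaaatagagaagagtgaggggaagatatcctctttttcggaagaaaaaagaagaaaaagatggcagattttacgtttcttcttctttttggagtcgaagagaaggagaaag
pag-3, chrX:14951882-14952032, intron: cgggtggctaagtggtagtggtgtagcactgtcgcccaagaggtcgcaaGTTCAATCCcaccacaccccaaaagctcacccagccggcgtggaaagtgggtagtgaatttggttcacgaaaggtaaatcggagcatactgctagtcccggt
zag-1, chrIV:3854783-3854933, upstream: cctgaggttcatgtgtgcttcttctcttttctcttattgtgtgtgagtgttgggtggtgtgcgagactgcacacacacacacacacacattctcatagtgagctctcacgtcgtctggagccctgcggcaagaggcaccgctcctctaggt

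None of the 7 genes had a thresholded peak. The count was 0 of 7 in the series-level thresholded list, where 19.6% of all protein-coding genes had one, and 0 of 7 in the conservative list, where 18.7% did. It was also 0 of 7 in the thresholded lists of replicate 1 and replicate 2, beside 10.8% and 12.7% of all genes. For 4 of the genes the chromosome is X, where 23.6% of genes had a thresholded peak, against 19% on the autosomes. The count of 0 of 7 was not tested against these shares and is not read as setting the genes apart. The genes were chosen with earlier results of these data known, and all 7 windows were longer than the median window of all genes.

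In the ranked lists most genes had a peak. Of the 7 genes, 6 had at least 1 summit in the larger ranked list, against 81.4% of all genes, and 6 in the smaller one, against 81%. The counts were 6 and 6 in the ranked lists of replicates 1 and 2, against 81.5% and 80.7%. The gene without any was ttx-3 each time. With the global IDR held at 0.05 or less, 1 gene (ctbp-1) remained in the larger list, against 28.9% of all genes, and 3 genes (ctbp-1, egl-13 and acc-4) in the smaller, against 27.1%. With 0.1 or less, the larger list gave ctbp-1, pag-3 and zag-1, and 34.9% of all genes, and the smaller list gave the same 3 genes as at 0.05, and 32.6% of all genes.

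**Figure D1:**
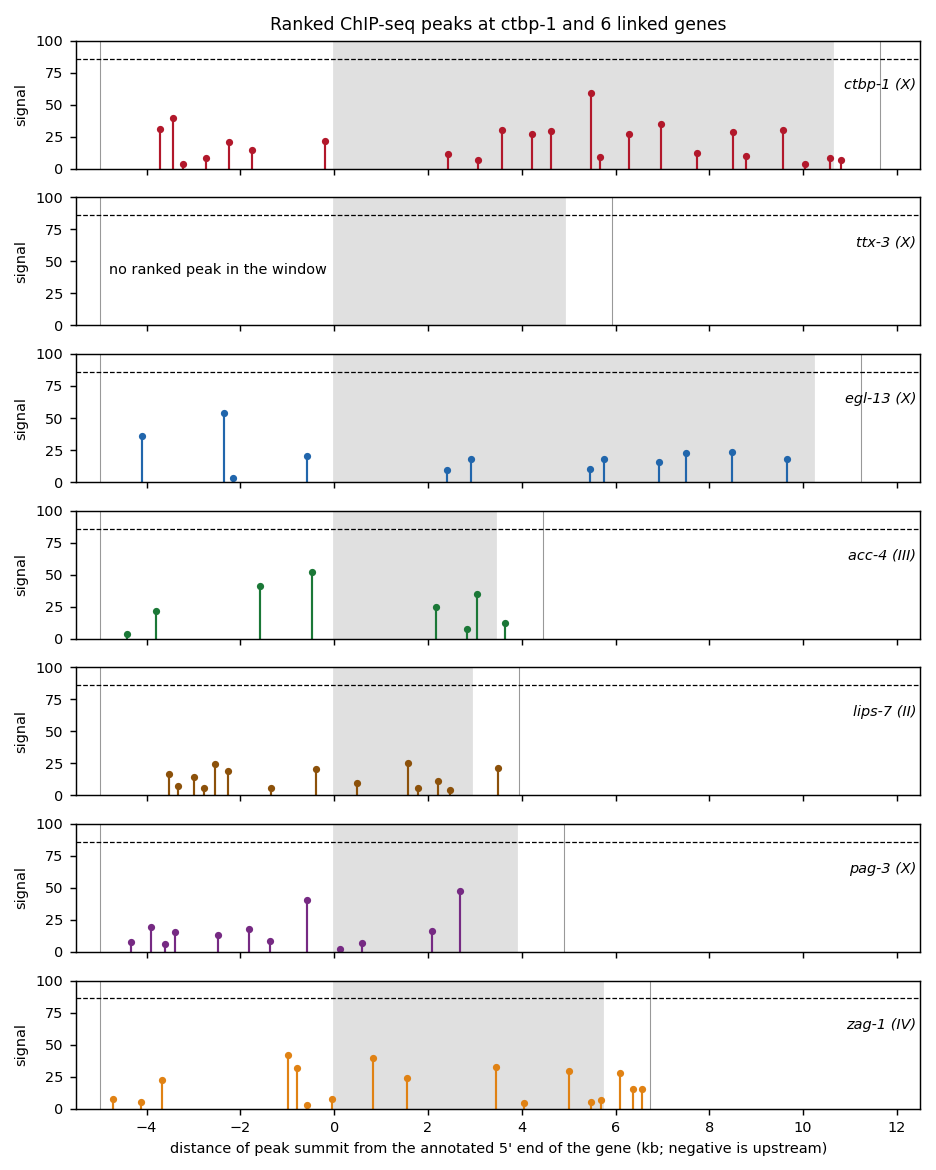
Peaks of the larger ranked list at the 7 genes. The horizontal axis is the distance of the summit from the annotated 5' end in kb, the vertical axis the authors' signal, grey marks the gene, thin vertical lines the window, and the dashed line the median signal of thresholded peaks (85.98). No peak reaches the dashed line, the highest is 58.99 inside ctbp-1, and ttx-3 has none.

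Together the 7 windows held 86 peaks of the larger ranked list, 38 upstream of a gene, 42 inside and 6 downstream. Of those inside, 22 lay in introns, 13 in coding exons and the other 7 in untranslated exon sequence. For 63 of the 86 the gene's own 5' end was the nearest protein-coding one. Their median signal was 16.32, against 18.21 over all nuclear ranked peaks, and none of the 86 exceeded the median of thresholded peaks, 85.98. The global IDR stood at its ceiling of 0.832 for 45 of the 86 (52.3%), against 43.4% of all nuclear ranked peaks. It was 0.05 or less for 2 (2.33%), both at ctbp-1, against 5.87% of all.

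**Figure D2:**
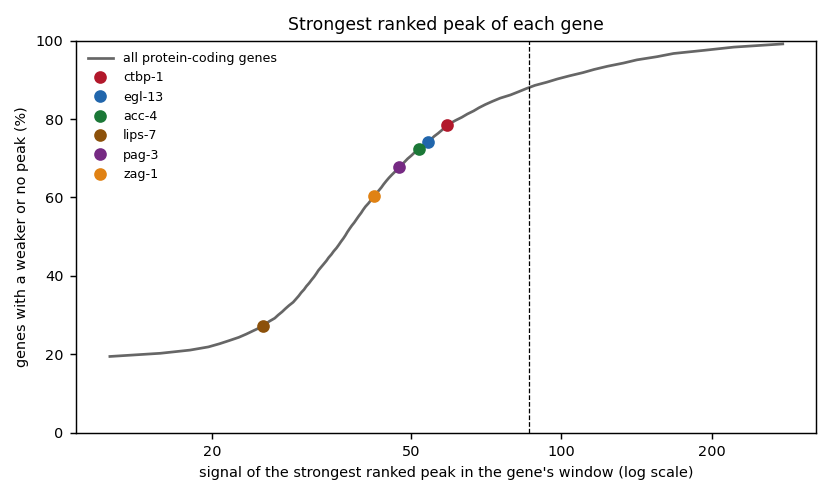
Signal of the strongest peak in each gene's window in the larger ranked list (log axis) against the percent of all protein-coding genes whose strongest peak was weaker or absent. Coloured points are the 6 genes with a peak, the grey line all genes with one, and the dashed line the median signal of thresholded peaks. The 6 points run from 27.3% for lips-7 to 78.4% for ctbp-1.

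The corepressor's own gene had the strongest peak of the 7, with the same signal in both series-level ranked lists, and the most peaks in each. In replicate 1 its strongest peak (23.95) was below those of egl-13 (30.23) and acc-4 (28.67). In replicate 2 its strongest (27.92, against 27.89 at egl-13) was a different peak, upstream of the gene. The ctbp-1 window of 16.6 kb held 23 ranked peaks in the larger list and 20 in the smaller. The median window of all genes was 8.03 kb, so counts are also given per kb. In the larger list ctbp-1 had 1.38 peaks per kb, against a median of 0.93 over all genes. That was below lips-7 (1.56) and zag-1 (1.45). The strongest summit, at X 5868175, had a signal of 58.99. It lay inside an intron, 5467 bp from the annotated 5' end of the gene and 350 bp downstream of the 5' end of its short form, where an annotated noncoding RNA, F49E10.20, overlaps it. In the replicates' own lists the overlapping peak had a signal of 23.95 in replicate 1 and 24.89 in replicate 2, with summits 14 and 32 bp away. Signals are on the scale of their own list, so those of the replicates are given side by side. The global IDR was 0.0207 in the larger list and 0.0423 in the smaller, both short of the threshold of 0.01. It was the only peak of the 86 at or below 0.05 in both lists.

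A cluster of 3 overlapping ranked peaks lay 3215 to 3714 bp upstream of ctbp-1, at X 5858994, 5859278 and 5859493, with signals of 31.41, 39.54 and 3.623. Replicate 1 split the same stretch into 3 peaks of 19.6, 11.68 and 8.325, and replicate 2 had 1 peak of 27.92, its strongest at this gene. The summit at 5858994 had a global IDR of 0.0292 in the larger list and 0.208 in the smaller, although its signal was the same in both. Closer to the long form's 5' end, a peak 195 bp upstream had a signal of 21.79 and a global IDR of 0.648, and neither replicate's list held a summit within 1 kb upstream of that 5' end. Within the gene, peaks of 29.84 and 35.22 stood 493 bp upstream and 1842 bp downstream of the short form's 5' end. The first overlapped peaks of 14.57 and 5.96 in replicate 1 and one of 25 in replicate 2. The second overlapped a peak of 6.507 in replicate 1 and none in replicate 2. The other 16 ranked peaks of the window ran from 3.349 to 30.06.

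The LIM homeobox gene ttx-3 was the gene of the set with no peak at any rank. Its window of 10.9 kb (X 11763456 to 11774378) held 0 summits in each of the 4 ranked lists. Among the 3299 genes with windows at least as long, 205 (6.21%) lacked a peak in the larger ranked list and 218 (6.61%) in the smaller, and 180 and 219 did in the lists of replicates 1 and 2. The gene lay in a stretch of 34.4 kb between neighbouring ranked summits at X 11757908 and 11792271. Of 85290 such distances in the larger list, 151 were at least as long, the median was 645 bp and the longest 142 kb. With no summit in the 10.9 kb window, the stretch was bound to exceed that length, far above the median. The replicates' own stretches were 33 kb in replicate 1 (X 11759169 to 11792165) and 33.8 kb in replicate 2 (X 11757879 to 11791650). Each replicate thus had a summit inside the 34.4 kb, near its ends, and the part around ttx-3 was bare in both. Whether reads map uniquely in the stretch was not tested.

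The stretch without peaks ended at a strong one. The summit at X 11757908, 6548 bp beyond the 3' end of ttx-3, was in the thresholded list with a signal of 196.9, and replicates 1 and 2 gave 99.15 and 99.05 there. It lay within 200 bp of a tRNA gene (WBGene00014286), and the nearest protein-coding 5' end was that of lact-7. The next thresholded summit on the other side was 28878 bp upstream, near rsd-3, with a signal of 87.49.

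The SOX gene egl-13 lies 189 kb from ctbp-1 on X and had the strongest upstream peak of the set in both series-level ranked lists. Its 12 ranked peaks in a window of 16.2 kb came to 0.739 per kb, against a median of 0.93 over all genes. The strongest summit, at X 5661487, had a signal of 54.01, with 27.54 in replicate 1 and 27.89 in replicate 2 and summits 0 and 47 bp away. It stood 2350 bp upstream of egl-13 but nearer, at 1520 bp, to the 5' end of T22B7.22, and 2 annotated noncoding RNAs overlap it. The lists disagreed on it, with a global IDR of 0.37 in the larger and 0.0168 in the smaller. A second upstream peak, at X 5659737, had a signal of 35.97, with 30.23 in replicate 1 and no overlapping peak in replicate 2, and T22B7.22 was again the nearer gene. Peaks nearer to 5' ends of egl-13 itself were weaker, the highest being 23.46 in a coding exon at X 5672329, with a global IDR of 0.635. The remaining 9 peaks ran from 3.177 to 22.89.

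The channel gene acc-4 had its strongest peak closest to its 5' end. At III 13484601, 477 bp upstream, the signal was 51.87, and a second summit at III 13485711, 1587 bp upstream, had 41.18. In replicate 1 these peaks had signals of 27.47 and 28.67, and replicate 2 had no ranked peak overlapping either. Of the 8 ranked peaks of the window, 6 overlapped a peak of replicate 1 and 3 one of replicate 2. The global IDR of the first was 0.213 in the larger list and 0.0226 in the smaller, and that of the second 0.199 and 0.252. With replicate 2 alone, the strongest peak at acc-4 had a signal of 16.92 and stood 3046 bp downstream of the 5' end, within the gene. The series-level list had a peak there too, at III 13481082, with a signal of 34.67, and it also overlapped a peak of replicate 1 (18.32).

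The GFI-family gene pag-3 had 2 peaks of similar height in the larger ranked list and no other above 20. The stronger, at X 14951957 in an intron 2691 bp from the 5' end, had a signal of 47.34, with 19.66 in replicate 1 and 22.01 in replicate 2. The other, at X 14955232, 584 bp upstream, had 40.9, with 18.27 in replicate 1 and 23.35 in replicate 2. Replicate summits lay 1 to 58 bp from the series-level ones at these peaks, and these were the only 2 of its 12 ranked peaks that overlapped a ranked peak of replicate 2. The global IDR was 0.0637 and 0.126 in the larger and smaller list for the first, and 0.18 and 0.172 for the second. The remaining 10 peaks ran from 2.454 to 19.44.

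At the ZEB-family gene zag-1 the peaks stood on either side of the 5' end. The strongest, at IV 3854858, 985 bp upstream, had a signal of 42.15. The overlapping peak had 18.14 in replicate 2, with its summit 38 bp away, and 21.07 in replicate 1, with its summit 167 bp away and nearer to that of a separate series-level peak at IV 3855060 (31.88). A summit 828 bp downstream, in a coding exon at IV 3856671, had 39.6, with 17.36 in replicate 1 and 24.03 in replicate 2. Another, at IV 3859284 in an intron, had 32.65, with 14.29 and 16.38. Of its 17 ranked peaks, 6 overlapped a peak of both replicates. That share was 35.3%, against 34.8% at ctbp-1, and with an overlap of at least 0.5 of the shorter peak it was 29.4% against 30.4%. The global IDR of the strongest was 0.0859 in the larger list, 0.154 in the smaller and 0.0787 in replicate 2, the smallest of any peak of the 7 genes in a replicate's own list. It was 0.855 for the overlapping peak in replicate 1.

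In the larger ranked list the lipase gene lips-7 combined the highest density of peaks with the lowest strongest signal among the 6 genes with peaks. It had 14 peaks in 8.95 kb, 1.56 per kb, a density above that of 89.8% of all genes, and the strongest had a signal of 25.25. The density exceeded that of 76.4% of genes in the smaller list, 20.7% in replicate 1 and 71.7% in replicate 2, and in replicate 1 it was the lowest of the 6 genes with a peak. This peak, at II 553418 in a coding exon 1564 bp from the annotated 5' end and 332 bp downstream of another, had 21.49 in replicate 1 and 8.452 in replicate 2. Its global IDR was 0.223 in the larger list and 0.656 in the smaller. The peak nearest upstream, at II 551473 and 381 bp from the gene, had 20.59, with no peak in replicate 1 and 11.52 in replicate 2. Replicate 1 had 1 ranked peak in the whole window and replicate 2 had 6.

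**Figure D3:**
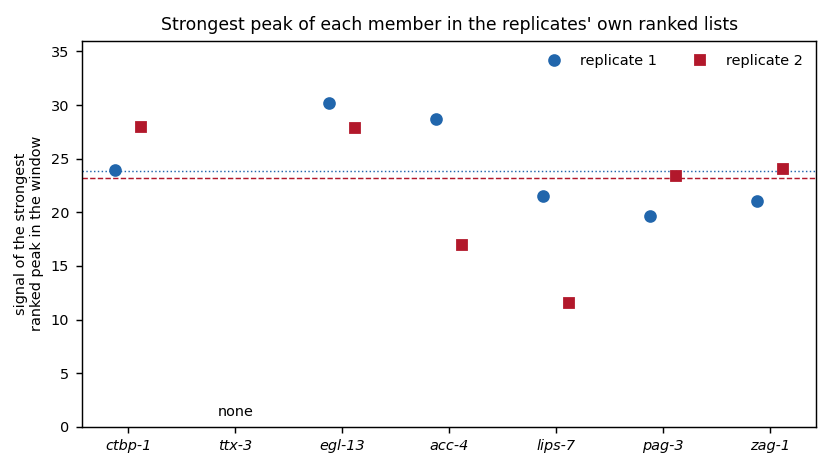
Signal of the strongest ranked peak in each gene's window in the separate list of replicate 1 (circles) and replicate 2 (squares); dotted and dashed lines are the medians over all genes with a peak, 23.85 and 23.22. At ctbp-1 and egl-13 both points lie above the median of their own list, at lips-7 both lie below it, and acc-4 lies above in replicate 1 and below in replicate 2.

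Set against all genes, the strongest peaks of 5 of the 7 genes stood above the middle of the range, lips-7 stood below it and ttx-3 had no peak. The share of all genes with a weaker or absent strongest peak in the larger list was 78.4% for ctbp-1, 74.1% for egl-13, 72.3% for acc-4, 67.7% for pag-3, 60.4% for zag-1 and 27.3% for lips-7. The median strongest signal over genes with a peak was 41.53, below the values of ctbp-1, egl-13, acc-4, pag-3 and zag-1 and above that of lips-7. Longer windows hold more peaks, and the windows of the 7 genes, from 8.95 to 16.6 kb, were all longer than the median of 8.03 kb. In the replicates' own lists the share was 59.6% and 71.5% for ctbp-1, 75% and 71.5% for egl-13, 43.4% and 60.1% for pag-3, 48.9% and 61.9% for zag-1, 71.9% and 36.9% for acc-4, and 50.5% and 23.1% for lips-7 in replicates 1 and 2. The order of neighbours among ctbp-1, egl-13 and acc-4 therefore differed between the replicates.

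Missing the threshold was the usual fate of peaks of this height. Among ranked peaks with a signal within 10% of the strongest at each gene, the share in the thresholded list was 23.2% for ctbp-1 (341 of 1472 peaks), 8.55% for egl-13, 5.25% for acc-4, 1.42% for pag-3, 0.398% for zag-1 and 0.151% for lips-7. The ctbp-1 peak thus fell short at a height where 23.2% of peaks passed, and the others at heights where few did. Pooled over the genes, a smaller share of the 86 peaks than of all ranked peaks had a partner in the replicates' lists, but the genes differed. Of the 86 peaks, 22 (25.6%) overlapped a ranked peak of both replicates by at least 1 bp, against 30.4% of all nuclear ranked peaks, and 39 (45.3%) overlapped none of either, against 28.3% of all. With a summit within 100 bp as the rule, 14% had a partner in both and 48.8% in neither, against 17.1% and 42% of all.

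**Figure D4:**
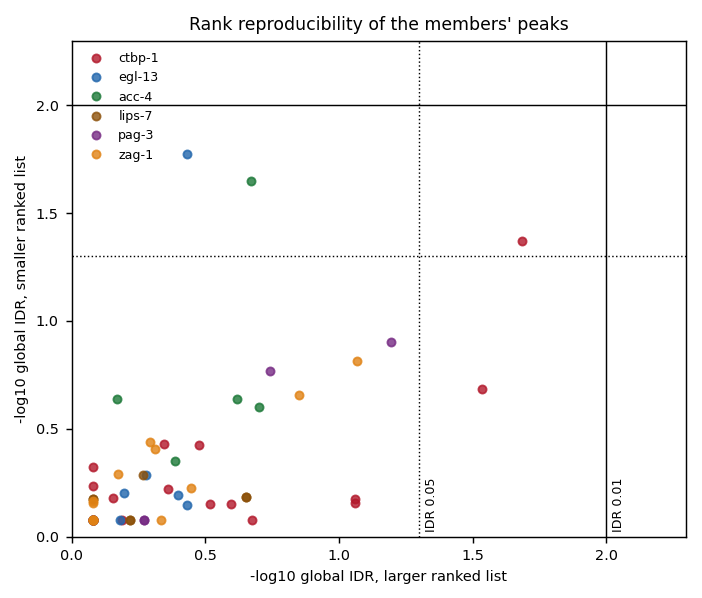
The −log10 global IDR of the peaks of the 7 genes in the larger ranked list (horizontal) and the smaller (vertical), for the 67 of 86 peaks present in both. Dotted lines mark an IDR of 0.05 and solid lines 0.01; no peak passes a solid line, and only the ctbp-1 peak of signal 58.99 lies past both dotted ones.

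The IDR values differed between the lists for the same peaks. Of the 86 peaks, 67 had the same start, end and summit in the smaller list and 19 were absent from it. The global IDR was 0.05 or less for 4 peaks in at least 1 list and for 1 in both. The 4 were the 2 at ctbp-1 already named and the strongest of egl-13 and acc-4. The smallest values reached were 0.0207 in the larger list and 0.0168 in the smaller. A peak of low signal beside a stronger one sometimes had nearly the same IDR, as at X 5859493 beside 5859278 (0.0867 and 0.0866 in the larger list). This did not always hold, as at X 5868380 (0.698), which overlaps the peak at 5868175 (0.0207).

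No thresholded peak lay close to most of the other genes. The nearest thresholded summit beyond a gene edge was 15250 bp upstream of ctbp-1 (nearest 5' end atat-2), 12217 bp downstream of egl-13 (set-20), 14216 bp downstream of acc-4 (cdk-5), 28817 bp upstream of pag-3 (rbg-1), 113333 bp upstream of zag-1 (siah-1) and 140786 bp upstream of lips-7 (dnsn-1). At pag-3 the summit had a signal of 94.51 and at zag-1 of 65.28.

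By the strongest ranked signal in each replicate's own list, the 3 genes most like ctbp-1 (23.95 and 27.92 in replicates 1 and 2) among 14767 genes with a peak in both were snx-27, a sorting nexin gene on I (24 and 27.84), and the neighbours T04A8.13 and T04A8.18 on III (24.16 and 28.02 each). None of them had a thresholded peak, which their choice made likely. Their signals were picked to be near those of ctbp-1, well below the medians of thresholded peaks in replicates 1 and 2 (62.35 and 60.2). The measure was the distance between log2 signals over 2 replicates.

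Some genes of the same pathways and families had thresholded peaks, though for neuronal factors and lipases the share was near that of all genes. Of 20 genes of corepressor machinery, 8 (40%) had one, against 19.6% of all genes. The strongest were at rcor-1, a CoREST gene (signal 233.4), with 111.1 in replicate 1 and 124.8 in replicate 2, downstream of the gene and nearer to the 5' end of nlp-40, and at lin-53 and rba-1, histone-binding protein genes that share a single peak (192.2, with 100.3 and 100.7), which lies nearer to nra-2. For the corepressor list the count was 4 (20%) in replicate 1 and 6 (30%) in replicate 2, against 10.8% and 12.7% of all genes. It was 4 with promoter windows of 1 kb upstream to 250 bp downstream, against 7.12% of all genes. Of 23 genes expressed in or fixing the fate of AIA, AIY and M4 neurons, a list that includes ttx-3, egl-13, acc-4 and zag-1, 7 (30.4%) had a thresholded peak. The strongest were at ser-2, a tyramine receptor gene (109.5, with 65.92 and 41.02), ceh-2, a homeobox gene (106.9, with 51.51 and 47.15), and gcy-28, a guanylyl cyclase gene (96.72, with 40.78 and 49.37). The ser-2 and ceh-2 peaks lay within 200 bp of a tRNA gene. For this list the count was 4 (17.4%) in each replicate's list and 1 with the same promoter windows, where 7.12% of all genes had a peak.

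Of 30 neuronal transcription factor genes, which include pag-3 and zag-1, 7 (23.3%) had a thresholded peak, led by the heterochronic gene lin-14 (162.9, with 66.82 and 113.3), the homeobox gene unc-42 (114.3, with 48.09 and 67.54) and ast-1, an ETS factor gene (100.7, with 51.71 and 50.24). For the neuronal factors the count was 5 (16.7%) in the conservative list, against 18.7% of all genes. It was 3 (10%) in the list of each replicate, against 10.8% and 12.7% in replicates 1 and 2. Of 5 SOX genes, egl-13 among them, none had a thresholded peak, although all 5 had a ranked peak. Of 17 acetylcholine-gated and related Cys-loop channel genes, 6 (35.3%) had one, but only 1 (5.88%) had one in the list of replicate 1, against 10.8% of all genes, and 3 (17.6%) in that of replicate 2, against 12.7%. The series-level peaks were led by lgc-40 (127.1), lgc-47 (93.33) and lgc-46 (81.7), of which the first peak lay nearer to T24D8.6. In the same family acc-1, named after its values were seen, had a thresholded peak of 54.86, with 20.89 in replicate 1 and 35.62 in replicate 2, against 51.87 for the acc-4 peak, which missed the threshold. Of 22 lips and related lipase genes, 5 (22.7%) had one, led by lipl-2 (203.3), lips-10 (135.8) and atgl-1 (92.78), of which the first 2 lay nearer to ztf-7 and eif-3.G. Among the strongest thresholded peaks of these 5 genes, only that of atgl-1 had the gene's own 5' end nearest. The lists are short, counts rest on shared peaks in places, windows were not matched for length, and no test was made.

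**Figure D5:**
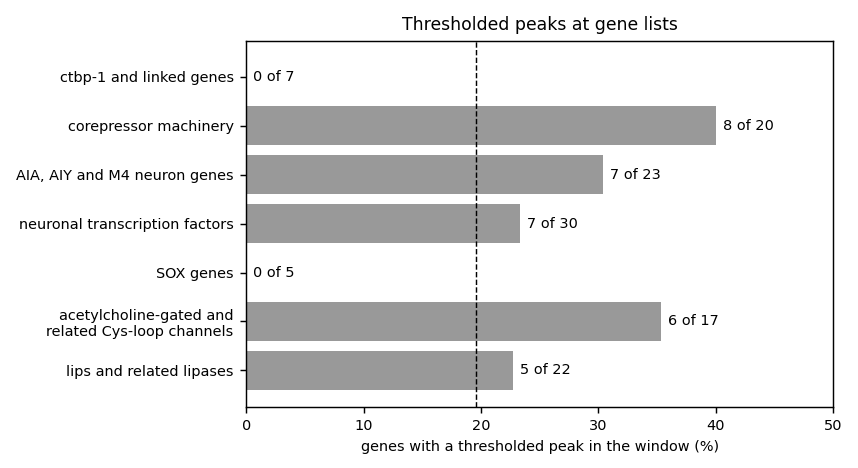
Share of genes in each list with a thresholded peak in the window (bars, percent, with counts), with the 7 genes on top and the dashed line at 19.6% for all protein-coding genes. The 7 genes and the SOX genes have none, and the corepressor list has the highest share at 40%.

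Sequence under the 6 strongest peaks held few of the motifs searched. Within 75 bp of the summit, on either strand, the ZEB E-box CACCTG, the SOX core AACAAT, the homeodomain core TAATTA and GAGAGA occurred at none of the 6. They occurred at 4.39%, 15.3%, 5.25% and 10.8% of all nuclear ranked peaks and at 3.06%, 8.45%, 2.99% and 31.3% of thresholded ones. AAATCA occurred at 1 peak, that of egl-13, where 2 overlapping matches make the capital run above, against 20% of ranked and 12.2% of thresholded peaks. The pag-3 peak had 1 match to GTTCNANNC, against 6.1% of ranked and 13.8% of thresholded peaks, where an annotated noncoding RNA, F45B8.6, overlaps it, and this motif was searched for after its sequence was seen. Within 150 bp, CACCTG occurred at 2 of the 6 peaks (pag-3 and zag-1), against 8.2% of ranked peaks, AAATCA at 3 (egl-13, acc-4 and lips-7), against 36.7%, and GAGAGA at 1 (ctbp-1), against 19.1%. AACAAT and TAATTA occurred at 0 of 6, against 28.9% and 10.9%, and GTTCNANNC at 2 (acc-4 and pag-3), against 11.5%. The 151 bases held 46.4% G and C at ctbp-1, 43% at egl-13, 43.7% at acc-4, 41.1% at lips-7, 55% at pag-3 and 53% at zag-1, against a mean of 39.3% over ranked and 46.1% over thresholded peaks.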

How the data were processed

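Peaks came from ChIP-seq of GFP-tagged CTBP-1 in 2 replicates of 1 group, with no comparison between groups. The deposited lists, on build ce11 per the labels, hold 3 units used here. The signal of each peak is the authors' own, per the file listings, and no source used here says what it is relative to. The score column is the authors' scaled IDR, from which the global IDR of thresholded peaks follows. The deposited ranked lists give the −log10 of the global IDR. Per the file listings, alignments of replicates 1 and 2 and an undescribed file went into the series-level lists. Aligner, peak caller and depth are not stated, so no interval is given. In the series-level ranked lists, 16 columns of single inputs were not used, since no label maps them to samples. How both ranked lists differ in origin is not stated.

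Summits, counted from 1, were assigned to windows from 5 kb upstream to 1 kb downstream of 19973 nuclear protein-coding genes (Ensembl release 115), with Python 3.11.15, pandas 2.3.3, numpy 2.4.6 and matplotlib 3.10.9. On simulated data, 2000 of 2000 planted peaks were recovered and 2000 of 2000 counts equalled a direct count. No test was made, since there was 1 group and the members and lists were chosen with earlier results of these data known. Genes named are the 7 members, the genes nearest to their strongest ranked and nearest thresholded peaks, the 3 strongest thresholded genes of each list, and the 3 most like ctbp-1 by replicate signals. Genes whose 5' ends lie nearer to a named list gene's peak are also given, and acc-1 was added after its values were seen. Of 25 lipase names, lips-4, lips-14 and lips-16 were not matched. Mitochondrial peaks were left out. Alternatives changed the list, replicate, window, overlap, IDR limit and motif window.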

Additional observations from a re-analysis of the deposited data

How the results depend on the processing

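The count of 0 of 7 genes with a thresholded peak stayed at 0 in the conservative list, without replicate 1 and without replicate 2. It also stayed at 0 with any overlap (20.2% of all genes) and with the nearest 5' end only (10.8%). The narrower or stricter settings could only give 0. Windows of 2 kb upstream to 500 bp downstream (13.6%) and promoter windows of 1 kb upstream to 250 bp downstream (7.12%) lay inside the main windows. For an IDR of 0.001 (11.1% in the larger list, 10.5% in the smaller), no peak at the genes had a value below 0.0168. With ranked lists and no threshold the count was 6 in each. At an IDR of 0.05 it was 1 in the larger list and 3 in the smaller, and at 0.1 it was 3 in each. The median share of genes below the members' strongest peaks was 67.7%, and 50.5% to 60.1% with one replicate left out. The sum of 86 ranked peaks was 32 to 34 in single replicates and 70 in the smaller list, settings chosen after seeing the data. With summits within 100 bp, 12 peaks were shared by both replicates, against 22. Egl-13 was the gene most moved by the window, at 35.6% of genes below instead of 74.1% with 2 kb upstream.

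Leaving out a replicate gave 4 to 6 corepressor genes (8 in full), 4 AIA, AIY and M4 genes in each case (7), 3 neuronal factor genes in each case (7), 1 to 3 channel genes (6) and 2 to 3 lipase genes (5), where the share of all genes was 10.8% to 12.7% (19.6% in full). With promoter windows the counts were 4, 1, 2, 3 and 0, with 7.12% of all genes. With motif windows of 150 bp the matches were 2 for CACCTG (0 with 75 bp), 3 for AAATCA (1), 1 for GAGAGA (0) and 2 for GTTCNANNC (1, a motif added after seeing the data), against 8.2%, 36.7%, 19.1% and 11.5% of ranked peaks. The cause of these moves was not tested. No paired analysis was possible because there is only 1 group. Depth is unknown, so how far it limits weak peaks could not be measured.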
